A study of Sus scrofa with 2 samples.

Results

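The genes described are those that move or bind zinc, copper and manganese in the hippocampus, the forebrain region that forms memories. They were chosen by name from the table of expressed genes: every gene whose symbol began with SLC30A or SLC39A, and 18 further transporters, chaperones, ferroxidases, reductases, metallothioneins and a metal sensor. Of 42 gene symbols that the rule could take, 30 had a gene ID in the table, out of 25322 IDs in all. RNA sequencing compared wild-type piglets of the Rongchang breed given iron dextran, an iron and sugar polymer complex injected against iron deficiency, with control piglets of the same breed and genotype. Each group was 1 sample with 1 value per gene, and the label of each sample lists 2 names without saying whether these were animals, libraries or runs. The sources used here do not give dose, age or sex. Without replicates no test could be run, and each difference below describes these 2 samples and not the conditions.

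Zinc, copper and manganese are needed by enzymes and are harmful in excess, so cells keep them bound and move them through membrane proteins. SLC30A proteins (ZnT) carry zinc out of the cytosol into vesicles, organelles or the outside, and SLC39A proteins (ZIP) carry zinc, and for some members manganese or iron, into the cytosol. Copper is handed by small chaperone proteins to pumps and enzymes, and metallothioneins hold zinc and copper in clusters of cysteines. The hippocampus is known for zinc stored in synaptic vesicles of glutamatergic neurons, above all in the mossy fibres of dentate granule cells. Iron shares carriers with manganese and zinc, and its export from cells relies on copper-containing ferroxidases.

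Values are FPKM, which count fragments relative to transcript length and to all mapped fragments, so levels of different genes can be set side by side. FPKM summed to 850165 in iron dextran and 924070 in control, a ratio of 0.920. The number of fragments is unknown. Among 587 genes above 0 in both samples with a mean FPKM under 0.1, the most common ratio of iron dextran over control was 0.943. Of these genes 197 lay near it. From its inverse, the depth of iron dextran was estimated at 1.06 times that of control. The tissue carried neuronal transcripts, with 6 of 6 matched neuron markers above a mean FPKM of 1 and a summed 3462 FPKM in iron dextran and 3608 in control. The 5 dentate granule cell markers, all matched, summed to 29.5 FPKM in iron dextran and 24.5 in control. Of them C1QL3 had 16.5 FPKM in iron dextran and 11.5 in control, CALB1 had 1.56 in iron dextran and 0.802 in control, and C1QL2 had 10.3 in iron dextran and 10.9 in control. PROX1 had 0.858 FPKM in iron dextran and 0.761 in control, and DSP had 0.241 in iron dextran and 0.546 in control. Beside them stands SLC30A3, the vesicular zinc transporter of these cells, with the values below, and the part of cell makeup in them was not tested. Summed FPKM of the 5 matched microglia markers of 9 listed was 89.0 in iron dextran and 66.3 in control, and that of the 4 matched erythroid genes of 6 listed was 519 in iron dextran and 189 in control.

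No metal transport gene compared on the log2(FPKM + 1) scale was 1.5-fold apart between iron dextran and control, and SLC30A6, with a plain ratio of 1.61, came nearest. Of the 30 genes, 18 had a mean FPKM of at least 1 and were compared on the log2(FPKM + 1) scale as iron dextran minus control; the added 1 makes the change of low genes look smaller. Of these 18, 0 were higher by 1.5-fold or more in iron dextran, where 2.47% of all 12557 genes were, and 0 were at least 1.5-fold lower, where 1.47% were. At those shares 18 genes would hold hardly any call, so the count of 0 does not set these genes apart. Their median log2 difference was −0.01 against −0.00464 over all genes, with 9 above 0 and 9 below. The range was from −0.37 for ATOX1 to 0.54 for SLC30A6. The quartiles over all genes were −0.12 and 0.14, and 8 of the 18 lay between them, 3 above and 7 below.

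**Figure D1:**
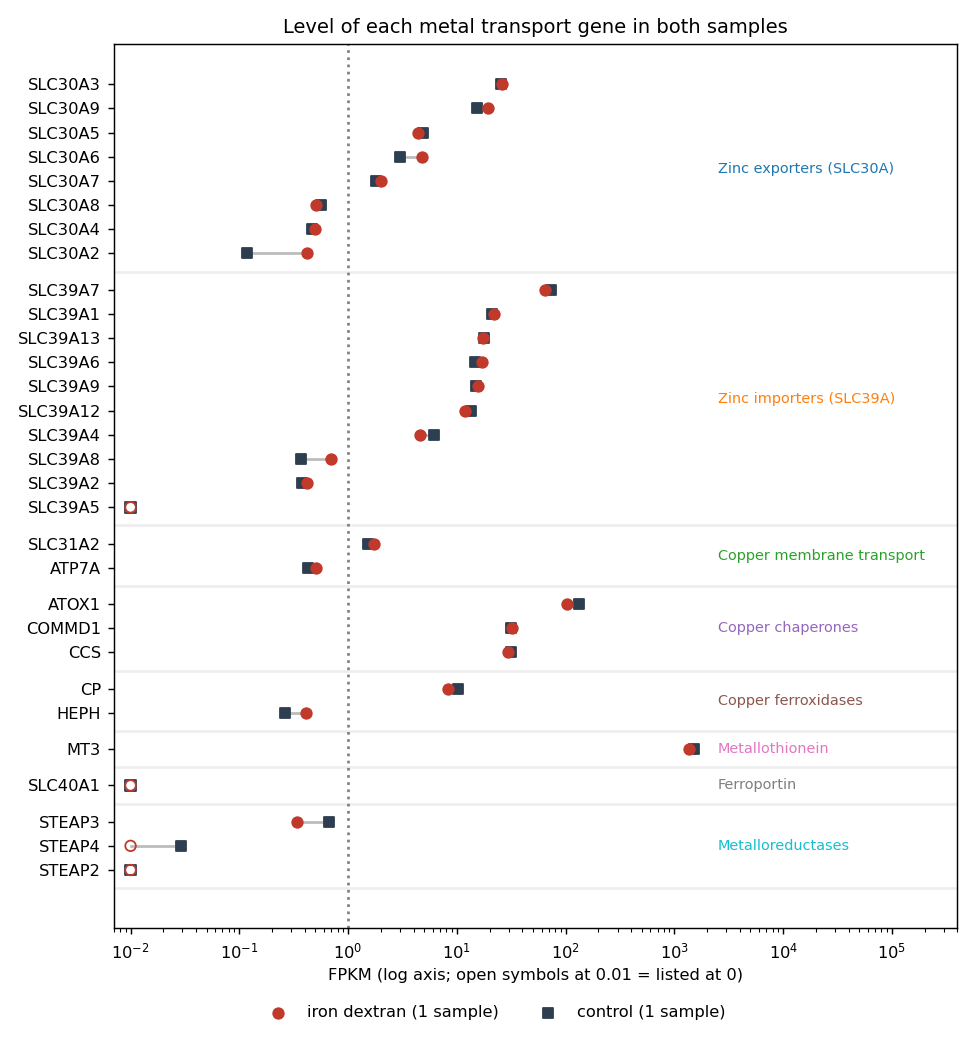
FPKM on a log axis for each of the 30 metal transport genes in iron dextran (circles) and control (squares), 1 sample each, grouped by role; open symbols mark genes listed at 0. MT3 stands at 1363 FPKM in iron dextran and 1521 in control, and 12 genes lie left of the dotted line at 1 FPKM on average.

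**Figure D2:**
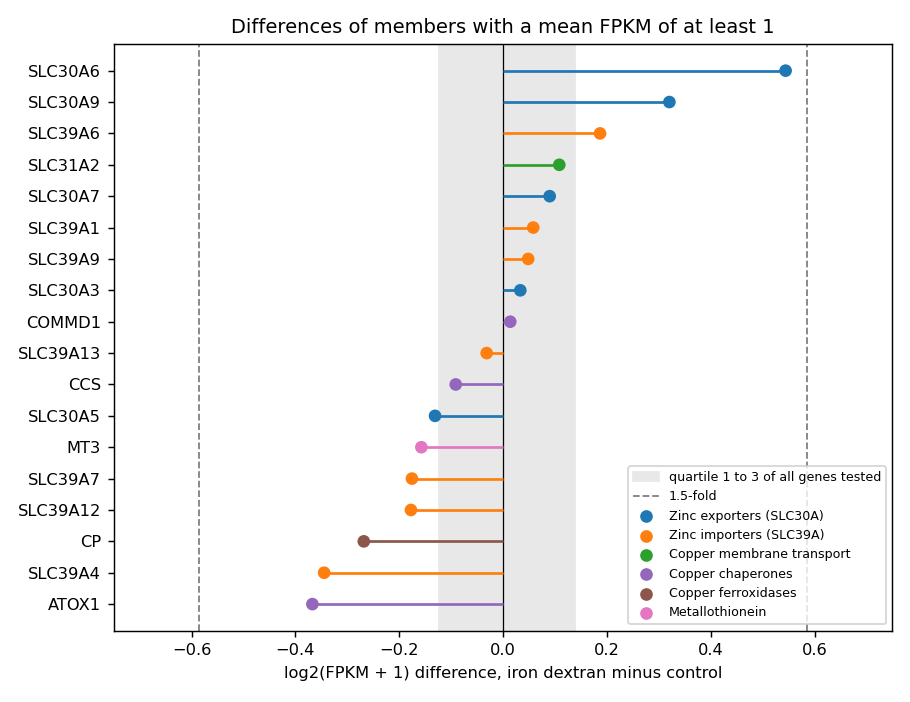
Iron dextran minus control on the log2(FPKM + 1) scale for the 18 genes that averaged 1 FPKM or more; the grey band runs from the first to the third quartile of all 12557 genes and the dashed lines mark 1.5-fold. SLC30A6 at 0.54 comes nearest to a dashed line, and 9 genes lie on each side of 0.

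Among the zinc exporters, SLC30A6 and SLC30A9 had higher values in iron dextran than in control, and the synaptic vesicle transporter SLC30A3 had almost the same value in both. SLC30A3 (ENSSSCG00000021534, ZnT3), which loads zinc into synaptic vesicles, had 26.1 FPKM in iron dextran and 25.5 in control, a log2 difference of 0.03. It was the most abundant of the 8 matched exporters and made up 44.9% of their summed FPKM in iron dextran and 49.3% in control. SLC30A9 (ENSSSCG00000008801), which exports zinc from mitochondria, had 19.4 FPKM in iron dextran and 15.3 in control, a log2 difference of 0.32. Of all genes compared, 14.9% had a larger absolute difference than SLC30A9.

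SLC30A5, SLC30A6 and SLC30A7 bring zinc into the early secretory pathway, where SLC30A5 and SLC30A6 work as a heterodimer. SLC30A6 (ENSSSCG00000008518) had 4.83 FPKM in iron dextran and 2.997 in control, a plain ratio of 1.61. On the log2(FPKM + 1) scale its difference was 0.54, just short of 1.5-fold, and 4.66% of all genes had a larger absolute difference. With a pseudocount of 0.1 in place of 1 its difference was 0.67, at least 1.5-fold higher, as for 4.44% of all genes, and a pseudocount of 0.01 gave 0.69, where 4.77% were. With both columns scaled to the same total it was 0.64, where 3.52% were. By plain ratio 10.7% of all genes at a mean FPKM of 1 to 5 were at least 1.5-fold higher. Its partner SLC30A5 (ENSSSCG00000022430) had 4.40 FPKM in iron dextran and 4.92 in control, a log2 difference of −0.13. The level of SLC30A5 was thus 0.912 times that of SLC30A6 in iron dextran and 1.64 times in control. SLC30A7 (ENSSSCG00000006860), a transporter of the Golgi, had 1.99 FPKM in iron dextran and 1.81 in control.

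The remaining matched exporters had values under 1 FPKM in both samples. SLC30A8, which fills insulin granules in pancreatic beta cells, had 0.503 FPKM in iron dextran and 0.562 in control. SLC30A4, a transporter of endosomes, had 0.495 FPKM in iron dextran and 0.468 in control. SLC30A2, which supplies zinc to milk in the mammary gland, had 0.418 FPKM in iron dextran and 0.118 in control. No exporter was listed at 0. SLC30A1, the exporter of the plasma membrane, and SLC30A10, which exports manganese, had no ID paired with their symbols and were not analysed here.

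Among the zinc importers, 7 had a mean FPKM of at least 1, of which 3 were above 0 on the difference scale and 4 below, with a median of −0.03. SLC39A7 (ENSSSCG00000001475, ZIP7), which releases zinc from the endoplasmic reticulum, was the most abundant of the 10 matched importers. It had 64.7 FPKM in iron dextran and 73.2 in control, a log2 difference of −0.18. It gave 41.9% of the summed SLC39A FPKM in iron dextran and 45.1% in control. Genes at a mean FPKM of 20 and over had a median log2 difference of −0.06, with quartiles at −0.14 and 0.03, so SLC39A7 lay a little below the lower quartile of genes at its level.

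The next 4 matched importers by level were carriers of the cell surface and of the secretory pathway. SLC39A1, a carrier of the plasma membrane, had 21.8 FPKM in iron dextran and 20.9 in control. SLC39A13, which acts in the Golgi and in vesicles, had 17.5 FPKM in iron dextran and 17.9 in control. SLC39A6, which takes zinc up at the plasma membrane in a complex with SLC39A10, had 16.95 FPKM in iron dextran and 14.8 in control, a log2 difference of 0.19. SLC39A9, of the Golgi, had 15.7 FPKM in iron dextran and 15.1 in control. By level, SLC39A6 stood above SLC39A9 in iron dextran and below it in control.

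SLC39A12 (ENSSSCG00000011039), which in the human and mouse brain is found mainly in astrocytes, had 11.8 FPKM in iron dextran and 13.5 in control, a log2 difference of −0.18. Beside it, the 5 matched astrocyte markers of 6 listed summed to 1530 FPKM in iron dextran and 1594 in control, with a median log2 difference of 0.27, 3 genes above 0 and 2 below. GFAP, with 1145 FPKM in iron dextran and 1275 in control, made up most of that sum. ALDH1L1 had 10.8 FPKM in iron dextran and 11.8 in control. SLC1A2, SLC1A3 and GJA1 were 1.21 to 1.24 times as high in iron dextran as in control. The part of astrocytes in the value of SLC39A12 was not tested. In bulk tissue, fewer cells of a type and less RNA per cell cannot be told apart. SLC39A4 (ENSSSCG00000005905), the importer of dietary zinc in the intestine, had 4.63 FPKM in iron dextran and 6.15 in control, a log2 difference of −0.34. Among the 7 importers at a mean FPKM of at least 1 it had the largest absolute difference, and 12.9% of all genes had a larger one. SLC39A2, a carrier of the plasma membrane, had 0.415 FPKM in iron dextran and 0.379 in control. SLC39A5, an importer of intestine and pancreas, was listed at 0 in both samples.

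Summed over the 8 exporters, FPKM was 58.1 in iron dextran and 51.7 in control, and summed over the 10 importers it was 154 in iron dextran and 162 in control. Importer transcripts were therefore 2.65 times exporter transcripts in iron dextran and 3.14 times in control. Both sums cover matched genes alone, and SLC39A3, SLC39A10, SLC39A11 and SLC39A14 were not analysed here for want of an ID with that symbol. TMEM163, a zinc efflux protein of synaptic vesicles and lysosomes, had 61.1 FPKM in iron dextran and 71.4 in control. That was a higher level than any of the 8 matched SLC30A genes in both samples.

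Among the copper chaperones, ATOX1 had a lower value in iron dextran than in control. ATOX1 (ENSSSCG00000026414), which delivers copper to the pumps ATP7A and ATP7B, had 103 FPKM in iron dextran and 134 in control. Its log2 difference of −0.37 was the lowest of the 18 genes, and control over iron dextran gave a plain ratio of 1.29. Of all genes, 11.4% had a larger absolute difference. At a mean FPKM of 20 and over 0.549% were at least 1.5-fold lower by plain ratio, a limit that ATOX1 did not reach. That share therefore does not describe a difference of the size of ATOX1, for which no share at this level was counted. CCS (ENSSSCG00000012934), which loads copper into the superoxide dismutase SOD1, had 29.2 FPKM in iron dextran and 31.2 in control. SOD1 itself had 695 FPKM in iron dextran and 715 in control, 23.8 times the level of CCS in iron dextran and 22.9 times in control. COMMD1 (ENSSSCG00000008376), which takes part in the endosomal traffic of the copper pumps, had 32.0 FPKM in iron dextran and 31.6 in control. The level of ATOX1 was 3.54 times that of CCS in iron dextran and 4.28 times in control.

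The copper carriers of membranes were low. SLC31A2, which helps to release copper from endosomes, had 1.72 FPKM in iron dextran and 1.53 in control, a log2 difference of 0.11. ATP7A, the pump that moves copper into the Golgi and out of cells, had 0.511 FPKM in iron dextran and 0.431 in control. The uptake carrier SLC31A1 and the pump ATP7B had no ID with that symbol.

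The ferroxidases carry copper and oxidise iron as it leaves cells. CP (ENSSSCG00000011700, ceruloplasmin), which in the brain is anchored on astrocytes, had 8.36 FPKM in iron dextran and 10.3 in control, a log2 difference of −0.27. HEPH (hephaestin) had 0.409 FPKM in iron dextran and 0.264 in control. Their partner in iron export, ferroportin (SLC40A1), was listed at 0 in both samples. A value of 0 here may be a failed estimate, which was not tested. Of all 25322 IDs, 7870 were at 0 in both samples. Among them were the ribosomal gene RPS21 and the haem enzyme gene COX10, both picked once values were known. They do not show why SLC40A1 read 0. Of 21 matched ribosomal protein genes, RPS21 was the 1 at 0 in both.

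MT3 (ENSSSCG00000024305), the metallothionein of the central nervous system, had the highest level of the 30 genes. It had 1363 FPKM in iron dextran and 1521 in control, a log2 difference of −0.16, and ranked 45th of all genes by level in iron dextran and 44th in control. MT3 made up 77.8% of the summed FPKM of the 30 genes in iron dextran and 78.2% in control. Without it the sum was 388 FPKM in iron dextran and 424 in control. Scaling both columns to the same total, which moved the median of all genes to 0.10, gave MT3 a difference of −0.04. A further metallothionein, MT1X (ENSSSCG00000030300), lay outside the rule and was named after its values were seen. It had 694 FPKM in iron dextran and 854 in control, a log2 difference of −0.30. Metallothioneins are a family of short, related genes, and how reads shared within the family were assigned was not tested. MT1A, MT2A and the zinc sensor MTF1, which switches metallothioneins on, had no ID with that symbol.

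The manganese importer and the metal reductases of the rule averaged under 1 FPKM or were listed at 0. SLC39A8 (ENSSSCG00000009169, ZIP8), which imports manganese and zinc, had 0.699 FPKM in iron dextran and 0.368 in control. STEAP3, which reduces iron in endosomes of erythroid precursors, had 0.342 FPKM in iron dextran and 0.672 in control. STEAP4 was listed at 0 in iron dextran and had 0.0292 FPKM in control, and STEAP2 was listed at 0 in both samples; both are reductases of iron and copper. SLC11A1, the metal carrier of phagosomes, had no ID with that symbol.

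In all, 12 of the 30 genes had a mean FPKM under 1, and 8 of these were above 0 in both samples. By plain ratio, an alternative chosen after the data were seen, 3 of the 8 were higher by 1.5-fold or more in iron dextran, where 28.0% of all genes at that level were. These were SLC30A2 with a ratio of 3.54, SLC39A8 with 1.90 and HEPH with 1.55. By the same ratio 1 of the 8, STEAP3, was at least 1.5-fold lower in iron dextran (control over iron dextran 1.96), where 20.7% of all genes at that level were. Of the genes above 0 in both samples at any level, 4 of 26 were at least 1.5-fold higher and 1 was lower, where 9.83% of all genes were higher and 6.75% lower. Counts this small beside such shares say nothing particular about these genes.

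**Figure D3:**
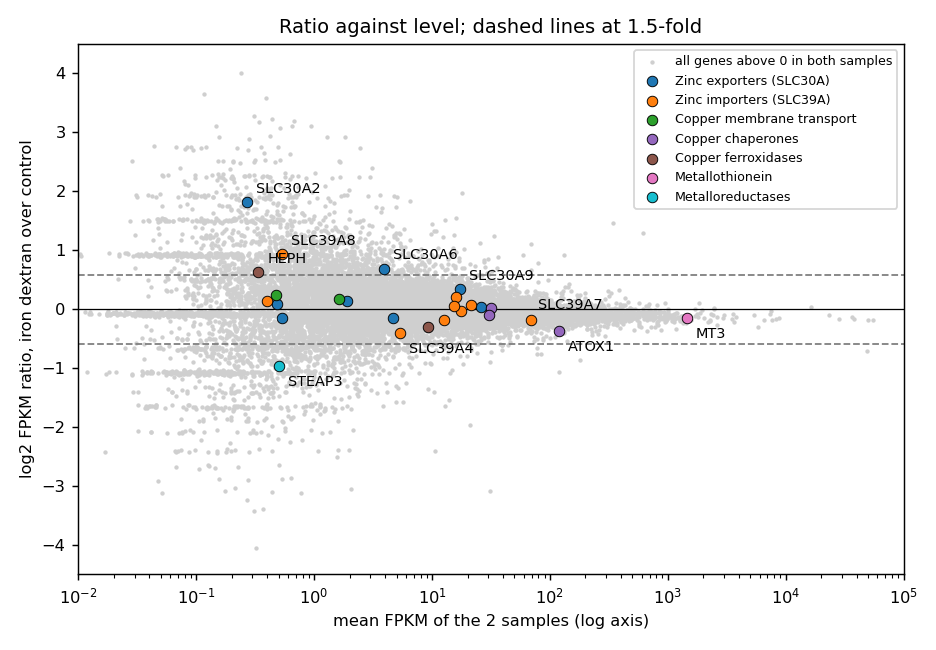
Plain FPKM ratio of iron dextran over control (log2) against mean FPKM (log axis) for all genes above 0 in both samples (grey) and for 26 metal transport genes, coloured by role; dashed lines mark 1.5-fold, and 3 other genes beyond 4.5 are not drawn. SLC30A2, SLC39A8, HEPH and STEAP3 lie past the dashed lines at a mean FPKM under 1, where the grey cloud is wide and shows horizontal bands, and SLC30A6 is the 1 gene past a line at a higher level.

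The quartiles of the differences of all genes drew closer together with rising level. The 4 genes at a mean FPKM of 1 to 5 ran from −0.13 to 0.54, where the quartiles of 4163 genes were −0.11 and 0.24. The 7 genes at 5 to 20 ran from −0.34 to 0.32, where the quartiles of 4380 genes were −0.11 and 0.15. The 7 genes at 20 and over ran from −0.37 to 0.06, where the quartiles of 4014 genes were −0.14 and 0.03. In this last stratum ATOX1 and SLC39A7, named above, and MT3 at −0.16 lay below the lower quartile. SLC39A1 at 0.06 lay above the upper quartile, and CCS, COMMD1 and SLC30A3 lay between.

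Genes around the same metals were looked at through 6 lists, chosen with earlier results of these data known. Of 70 listed genes, 44 had an ID and 35 a mean FPKM of at least 1. Of these 35, 0 were higher and 0 lower by 1.5-fold or more in iron dextran, where 2.47% of all genes were higher and 1.47% lower. By plain ratio, chosen after the data were seen, 0 of the 35 were higher and 1, GRIN2B, was lower by that much, where 4.53% of all genes at this level were higher and 2.67% lower. The 35 genes had a median log2 difference of −0.06, with 11 above 0 and 24 below. Over all genes the median was −0.00464 and 49.0% were above 0. All genes at a mean FPKM of 20 and over had a median of −0.06. The part of expression level in the direction of the 35 was not tested.

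For copper enzymes the median over 5 genes was 0.000617. MOXD1, a relative of dopamine beta-hydroxylase, had 10.4 FPKM in iron dextran and 8.70 in control, and LOXL1, which crosslinks elastin, had 4.40 in iron dextran and 5.37 in control. The 3 genes of mitochondrial copper supply had a median of −0.06. Among them SLC25A3, which carries copper and phosphate into mitochondria, had 513 FPKM in iron dextran and 540.1 in control, and the chaperone COX17 had 253 in iron dextran and 264 in control. The 10 other copper-related genes had a median of −0.01, with 3 above 0 and 7 below. CUTC, a copper-binding protein, had 12.2 FPKM in iron dextran and 8.9995 in control, and COMMD9, of the same complex as COMMD1, had 70.7 in iron dextran and 87.3 in control.

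For the manganese-related list the median over 4 genes was −0.25, with 1 above 0 and 3 below. TFRC, the transferrin receptor, through which manganese can enter as well as iron, had 5.43 FPKM in iron dextran and 7.98 in control. Its log2 difference was −0.48. As TFRC serves iron too, the median of this list does not describe manganese handling alone. ARG2, the manganese enzyme arginase of mitochondria, had 36.0 FPKM in iron dextran and 45.1 in control. The list around zinc had 7 genes, with a median of −0.15, 2 above 0 and 5 below. It includes CNNM1 to CNNM4, known for magnesium rather than zinc, and its median was the value of CNNM3. That median therefore does not describe zinc genes alone. TMEM163 has been described, and CNNM4 had 0.983 FPKM in iron dextran and 1.21 in control. The 6 genes of zinc-sensitive or zinc-filled synapses had a median of −0.06. GRIN2B, an NMDA receptor subunit, had 0.850 FPKM in iron dextran and 1.72 in control, a log2 difference of −0.56 and a plain ratio of control over iron dextran of 2.03, and GLRA2, a glycine receptor subunit that zinc modulates, had 11.05 in iron dextran and 9.11 in control. SLC17A7, the glutamate transporter of the same vesicles as SLC30A3, had 611 FPKM in iron dextran and 658 in control.

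**Figure D4:**
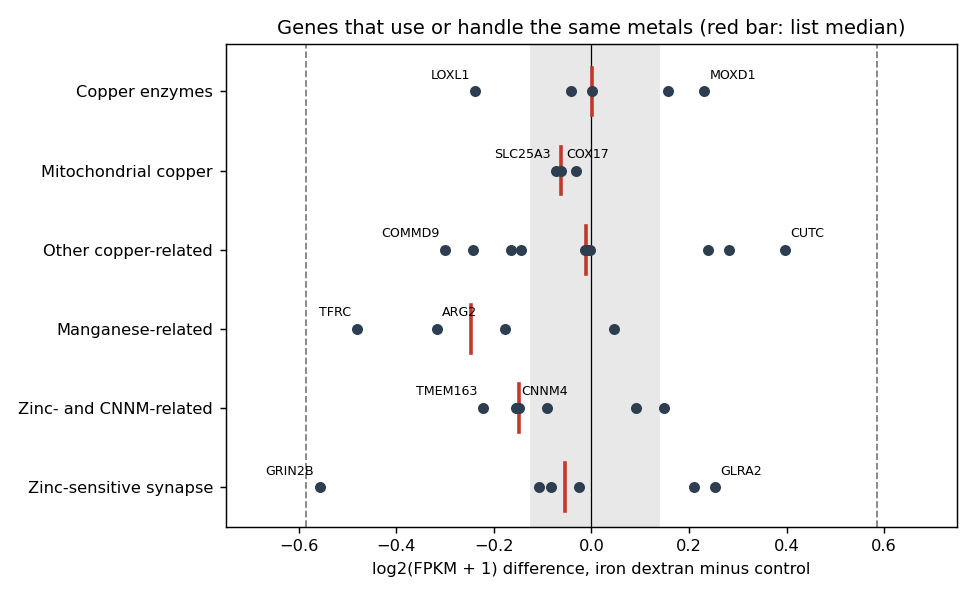
Iron dextran minus control on the log2(FPKM + 1) scale for 35 genes of 6 lists drawn up around zinc, copper or manganese. Not every gene handles these metals, as with the CNNM genes. Each point is a gene and red bars are list medians. The grey band runs from the first to the third quartile of all genes and dashed lines mark 1.5-fold. GRIN2B at −0.56 and TFRC at −0.48 lie nearest to a dashed line, and no gene is past it on this scale, on which the added 1 shrinks GRIN2B's plain ratio of 2.03.

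Summed marker levels of other cell types in the tissue were set beside these values. The 7 matched oligodendrocyte markers of 10 listed summed to 8628 FPKM in iron dextran and 9817 in control, a ratio of 0.879, with 1 above 0 on the difference scale and 6 below. Choroid plexus, which makes CP in other mammals, had 4 matched markers of 7 listed, with sums of 26.1 FPKM in iron dextran and 21.5 in control, and its marker TTR had 24.2 FPKM in iron dextran and 19.9 in control. The 3 matched endothelial markers of 6 listed summed to 19.99 FPKM in iron dextran and 22.2 in control. The 6 matched meningeal markers of 7 listed summed to 46.4 FPKM in iron dextran and 52.0 in control, and the 3 matched leukocyte markers of 5 listed to 5.98 in iron dextran and 4.69 in control. No matched marker of these lists was at 0 in both samples. The part of these cell types in the values of the metal transport genes was not tested.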

How the data were processed

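Hippocampal RNA of 1 iron dextran and 1 control sample was sequenced. Reads were trimmed with cutadapt 1.2.1 and aligned with TopHat to the pig genome, per the submitters' processing notes. Those notes give the build by the names Sscrofa10.2 and susScr3. The sources used here do not name the program behind the FPKM, the annotation or the use of strand. The authors deposited FPKM per Ensembl gene ID. Columns were assigned by the letter shared with the sample title. A table of IDs and symbols named 11804 of 25322 IDs.

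Differences are log2(FPKM + 1), iron dextran minus control, over genes averaging 1 FPKM or more; the limit for a call was 1.5-fold. No test was made with 1 sample per group. The arithmetic was tested on simulated data. Python 3.11.15 and pandas 2.3.3 were used. All matched genes of the rule are named, and of each metal list the 2 with the largest difference; SOD1, SLC17A7, MT1X, RPS21, COX10 and the cell markers named singly were picked once values were known. The genes and lists were chosen with earlier results of these data known. FPKM depends on library composition and gene length, so a few abundant genes shift all others. Planned searches for protein and promoter motifs were not run. Alternatives were other pseudocounts, filters, scalings and folds.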

Additional observations from a re-analysis of the deposited data

How the results depend on the processing

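With 1 sample per group nothing could be left out, and no paired analysis was possible because each group holds 1 sample. The count of genes at least 1.5-fold higher, 0 as reported, was 1 (SLC30A6) with pseudocounts of 0.1 and 0.01 (difference 0.69 with 0.01) and with columns scaled to the same total (0.64, where 3.52% of all genes were higher). By plain ratio, chosen after the data were seen, 4 were higher and 1 lower. Of the 35 genes of the metal lists, 1 (GRIN2B) was lower by plain ratio and 0 as reported. The metal lists were counted in these 2 ways alone. For the metal transport genes, no filter, a mean FPKM of at least 5, centring, trimmed means of M values and a 2-fold limit left both counts at 0. Of all genes, between 0.741% (2-fold limit) and 2.52% (centring) were higher at these settings. Between 0.422% (2-fold limit) and 1.47% (trimmed means) were lower, so counts of 0 do not set the metal transport genes apart. The median over the metal transport genes turned above 0 without a filter (0.0069), by plain ratio (0.043) and with the same column total (0.11), where the median of all genes was 0.10. The importer median turned to 0.0186 without a filter, 0.0515 by plain ratio and 0.0823 with the same total. The same total also turned the medians of the chaperones (0.0252), mitochondrial copper (0.0575), other copper-related genes (0.1073) and zinc-sensitive synapses (0.0599), and the differences of CCS (0.0252) and SLC39A13 (0.0823). The other 16 of 18 genes kept their direction in the scalings and pseudocounts run. The copper enzyme median was 0.1564 at a mean FPKM of at least 5, where fewer genes entered. The unknown depth sets no detection limit for genes under 1 FPKM.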
